A study of Mus musculus with 6 samples.

Results

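Regions with an H3K27ac peak in both libraries of the second replicate set of B16 melanoma cells, and in neither library of the first, were described. The 4 deposited peak lists were merged wherever peaks shared at least 1 bp, and a region was a member when it held a peak of LP_2 and of HP_2 and none of LP_1 or HP_1. Of 182956 merged regions, 4184 (2.29%) were members. The calls themselves chose the members, so their count, their pileup in set 2 and their lack of a peak in set 1 are descriptions and carry no test.

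ChIP-seq of H3K27ac had been made on B16 F10, a mouse melanoma line that forms melanin. Cultures were started at 100 cells per cm2, and on day 5 a flow cytometer separated low pigment (LP) from high pigment (HP) cells of the same culture by side scatter. Each population had 2 replicates, so LP_2 and HP_2 are replicate 2 of LP and of HP, and nothing in the labels says whether the 2 replicates came from separate cultures. IgG libraries of unsorted cells, 1 for each replicate number, were the controls for peak calling, and the amount of DNA that entered library preparation was equal within a replicate set. The labels name no genetic change and no added agent for any group. HP and LP are gates on scatter in 1 line, and the gates are not a measurement of melanin.

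Acetylation of histone H3 at lysine 27 is laid down by the acetyltransferases p300 and CBP and is removed by histone deacetylases. It marks active promoters, where it forms broad and high peaks over CpG-rich start sites, and active enhancers, which lie in introns and between genes and differ between cell types. In melanocytes MITF, a basic helix-loop-helix factor, and SOX10 are the main factors at the enhancers of pigmentation genes.

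Set 2 was sequenced more deeply than set 1. LP_2 held 15353176 fragments, 1.34 times the number of LP_1, HP_2 held 14254904, 1.24 times that of HP_1, and the IgG library of set 2 held 2.22 times the fragments of that of set 1. The part that depth played in the calls was not tested. Since the lists hold called peaks, members have no pileup in set 1. Of 7 genes that define melanocytes, 5 had a peak at a transcription start site (TSS) in LP_1 and all 7 in the other 3 libraries. Of 5 keratinocyte markers 0 to 1 had one, of 5 fibroblast markers 2, of 5 immune markers 0 to 2 and of 3 endothelial markers 0 to 1. A member lay at a TSS of 1 of the melanocyte markers, Dct, and of none of the others. That member was 25047 bp from the nearest protein-coding TSS, and each library also had a peak at a TSS of Dct.

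To show what such regions look like, the reference sequence (GRCm38, the assembly of mm10) of the 300 bp on the highest summit of 6 members is given, 5′ to 3′. They are the member at a protein-coding TSS with the highest rank by q-value in both lists (Zfand1), members with high ranks away from a TSS (Zmynd8 and Gm47283), members at pigmentation genes (Gpnmb and Mitf) and 1 at a replication gene (Mcm6). Capitals mark a match to a searched consensus: GGGCGGG of the SP/KLF factors on the minus strand at Zmynd8, AACAATG of the SOX factors at Mitf and TCATGTG of MITF at Mcm6. The window of Zfand1 has a GC content of 65.3%, that of Zmynd8 62.3% and that of Gm47283 61%, whereas those at Mitf and Mcm6 have 45.7% and 41%.
Zfand1 chr3:10351025-10351324 plus strand: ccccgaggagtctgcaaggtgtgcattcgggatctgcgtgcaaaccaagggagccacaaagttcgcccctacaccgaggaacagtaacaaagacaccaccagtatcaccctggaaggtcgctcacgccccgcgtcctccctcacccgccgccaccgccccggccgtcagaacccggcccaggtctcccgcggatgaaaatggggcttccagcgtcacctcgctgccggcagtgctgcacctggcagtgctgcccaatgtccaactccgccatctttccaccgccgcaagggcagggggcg
Zmynd8 chr2:165795979-165796278 plus strand: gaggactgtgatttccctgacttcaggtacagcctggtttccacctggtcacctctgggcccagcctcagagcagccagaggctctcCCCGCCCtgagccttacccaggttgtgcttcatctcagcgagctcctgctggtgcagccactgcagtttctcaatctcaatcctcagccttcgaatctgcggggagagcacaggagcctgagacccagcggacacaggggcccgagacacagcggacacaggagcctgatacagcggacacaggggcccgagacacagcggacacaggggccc
Gm47283 chrY:90800292-90800591 plus strand: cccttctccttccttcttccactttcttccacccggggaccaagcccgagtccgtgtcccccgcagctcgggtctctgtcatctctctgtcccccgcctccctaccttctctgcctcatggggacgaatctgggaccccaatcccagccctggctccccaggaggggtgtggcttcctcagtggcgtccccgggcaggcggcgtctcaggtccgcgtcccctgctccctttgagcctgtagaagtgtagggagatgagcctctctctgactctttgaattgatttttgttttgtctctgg
Gpnmb chr6:49047519-49047818 plus strand: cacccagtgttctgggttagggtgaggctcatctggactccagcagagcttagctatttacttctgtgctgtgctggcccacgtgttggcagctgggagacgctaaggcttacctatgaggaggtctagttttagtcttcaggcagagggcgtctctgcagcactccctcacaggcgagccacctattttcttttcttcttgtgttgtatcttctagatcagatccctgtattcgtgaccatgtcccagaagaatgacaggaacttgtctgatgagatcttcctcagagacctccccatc
Mitf chr6:97999417-97999716 plus strand: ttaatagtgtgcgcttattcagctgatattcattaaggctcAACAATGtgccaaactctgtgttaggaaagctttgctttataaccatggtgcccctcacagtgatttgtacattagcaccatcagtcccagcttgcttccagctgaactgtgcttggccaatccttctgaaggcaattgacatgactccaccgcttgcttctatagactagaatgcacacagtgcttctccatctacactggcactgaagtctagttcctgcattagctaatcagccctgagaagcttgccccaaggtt
Mcm6 chr1:128357771-128358070 plus strand: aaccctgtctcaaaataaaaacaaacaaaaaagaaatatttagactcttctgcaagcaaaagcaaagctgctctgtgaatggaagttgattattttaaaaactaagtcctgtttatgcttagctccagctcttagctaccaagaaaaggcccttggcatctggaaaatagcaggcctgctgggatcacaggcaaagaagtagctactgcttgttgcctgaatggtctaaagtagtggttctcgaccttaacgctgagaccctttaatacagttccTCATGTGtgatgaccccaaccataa

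The first question was how often set 2 stood alone. LP_2 and HP_2 shared 21883 regions, and 19.1% of these were members. LP_1 and HP_1 shared 14197 regions, of which 792 (5.58%) had no peak of set 2. Of the regions shared by HP_1 and HP_2, 7204 (27.8%) were called in no LP library, and of those shared by LP_1 and LP_2, 456 (3.55%) were called in no HP library. Of the pairs that cross the sets, LP_2 and HP_1 alone shared 1065 regions and LP_1 and HP_2 alone 764. Regions of 1 library share their source and are no replicates, so these sets were placed side by side without a test.

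Members were low beside the common regions, and close to the typical called region of the same library. The scaled pileup, which is the number of fragments over the highest summit of a region for each 1000000 fragments of the library, had a median of 0.782 in LP_2 (quartiles 0.635 and 0.977) and 0.842 in HP_2 (0.631 and 1.19). Both medians stand for 12 fragments. Over all regions with a peak of the library the medians were 0.716 in LP_2 and 0.842 in HP_2. In the 7204 regions of HP alone the median was 0.958 in HP_1 (11 fragments) and 1.05 in HP_2 (15 fragments). Regions called in all 4 libraries had medians of 2.61 in LP_2 and 6.59 in HP_2. The lowest summit called in any list had 5 or 6 fragments, so the values of members lie close to the limit of what could be called.

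**Figure D1:**
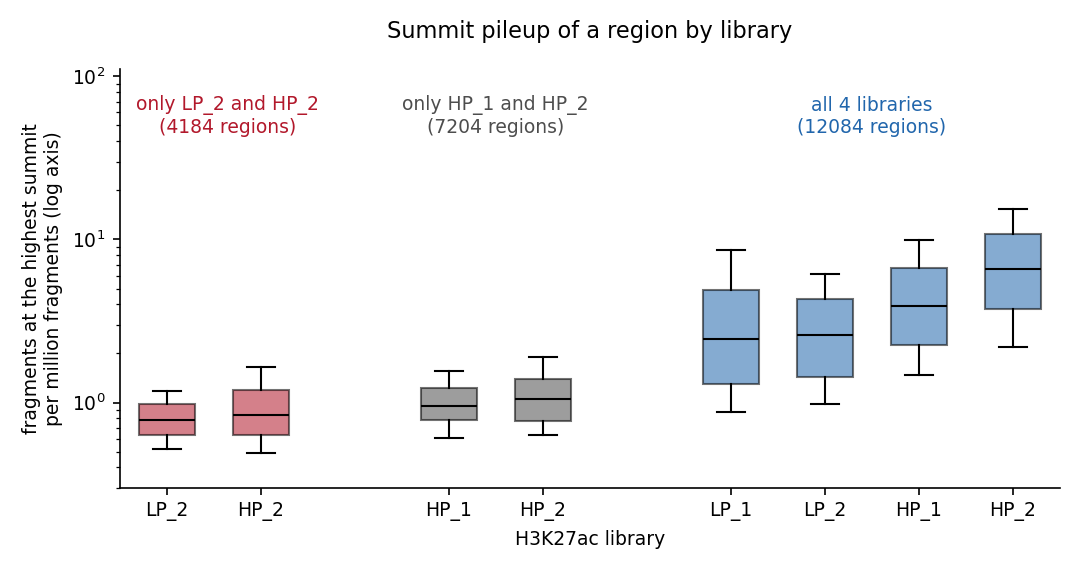
Fragments at the highest summit of a region, scaled to 1000000 fragments of the library (log axis), for the 4184 regions called only in LP_2 and HP_2, the 7204 called only in HP_1 and HP_2, and the 12084 called in all 4 libraries. Boxes give the quartiles, lines the medians and whiskers the 10th and 90th percentiles over regions, and the medians of the first 2 sets (0.782 to 1.05) lie below those of all 4 libraries (2.44 to 6.59).

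The share of members was smaller at greater height. Among regions of LP_2 and HP_2, the lower of the 2 scaled pileups was taken as the height. Below 0.5, 692 of 951 regions (72.8%) were members. The share was 46.8% from 0.5 to 0.75, 30.4% from 0.75 to 1, 12.3% from 1 to 1.5, 3.12% from 1.5 to 2 and 0.440% (34 of 7733) at 2 or more. HP_1 had a peak in 24.6% of the lowest and in 99.5% of the highest of these regions, and LP_1 in 6.41% and 96.9%. Regions over 1 kb from a TSS were members more often than those at a TSS in each of the 6 height ranges, for example 14.8% (95% Wilson interval 13.3 to 16.4) against 9.55% (8.30 to 11.0) from 1 to 1.5. Intervals cover counting error only.

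**Figure D2:**
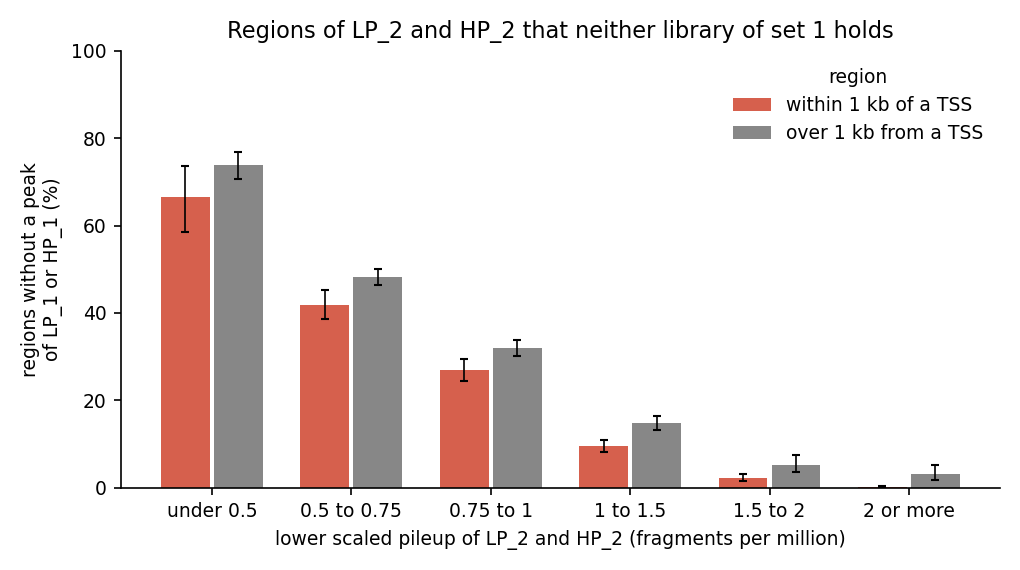
Share of the regions of LP_2 and HP_2 that held no peak of LP_1 or HP_1 (%), by the lower scaled pileup of LP_2 and HP_2, for regions within 1 kb of a TSS and farther away, with 95% Wilson intervals as error bars. The share goes down from 66.4% and 73.9% below 0.5 to 0.232% and 3.16% at 2 or more.

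A minority of members were just inside the threshold of the peak caller, a q-value of 0.05. The median −log10 q-value of members was 4.43 in LP_2 and 5.68 in HP_2, against 7.77 in HP_2 over regions of HP alone. In 596 members (14.2%) the weaker of the 2 peaks had a −log10 q-value under 2, with a median of 9 fragments in each library. The lowest −log10 q-value was 1.30. On the other side of the rule, 238 regions of LP_2 and HP_2 also had a peak of LP_1 alone from set 1, and in 54 of these its −log10 q-value was under 2, with a median of 7 fragments in LP_1. Of 5377 regions with HP_1 as the third library, 176 had such a peak in HP_1, with a median of 9 fragments. The fold enrichment over the local background, as the authors' MACS lists give it, had a median of 4.43 in LP_2 and 4.96 in HP_2 over members and of 5.66 in HP_2 over regions of HP alone.

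The median width of members was 505 bp (quartiles 392 and 669). It was 582 bp (420 and 819) for regions of HP alone and 1595 bp for those of all 4 libraries, but 262 bp over all merged regions, most of which were called in a single library, and 276 and 252 bp for regions of LP_2 and of HP_2 only. The LP_2 peaks covered a median of 329 bp and the HP_2 peaks 353 bp, and in 4117 members (98.4%) each library had a single peak. In HP alone the peaks covered 352 bp in HP_1 and 440 bp in HP_2. The fragment length given by the peak caller was 167 bp in LP_1, 217 bp in LP_2, 184 bp in HP_1 and 192 bp in HP_2. The least that peaks covered in a member equalled this length, with 217 bp in LP_2 and 192 bp in HP_2. Neither widths nor pileups were adjusted for it. The widest member spanned 2261 bp at an exon of Lbh, which encodes a transcription cofactor (chr17:72937131-72939391). Its scaled pileup was 0.521 in LP_2 and 1.47 in HP_2. The next were 2083 bp, 13832 bp from the start of Efcab10 (0.586 and 2.10), and 2074 bp in Eng, the gene of the TGF-beta coreceptor endoglin (0.716 and 1.61). In each of these 3 the HP_2 pileup was higher.

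By position, 981 members (23.4%, 95% Wilson interval 22.2 to 24.8) lay within 1 kb of the TSS of any transcript and 637 (15.2%) at 1 to 3 kb. First introns held 727 (17.4%), other introns 718 (17.2%), exons 278 (6.64%), the 300 bp after a transcript 9, and 834 (19.9%) were intergenic. The median distance to a protein-coding TSS was 13904.5 bp. Regions of HP alone had 19% (1369 of 7204) within 1 kb of a TSS, 19% in first introns and 23.4% between genes, with a median distance of 16500 bp. Regions of all 4 libraries differed far more, with 80.0% within 1 kb of a TSS. The order of the classes in members was therefore closer to that of HP alone than to that of the common regions, with a somewhat larger share at starts. At equal height in HP_2 the share at starts was larger in members as well. It was 17.4% against 14.6% up to 10 fragments, 22.0% against 18.5% from 11 to 15, 27.8% against 18.4% from 16 to 25 and 45.6% against 28.8% at 26 or more. The 95% Wilson intervals overlapped up to 10 fragments and from 11 to 15, and did not overlap in the higher ranges.

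Members were richer in G and C than regions of HP alone. Of 4180 members with sequence, 790 (18.9%, interval 17.7 to 20.1) had a GC content of 60% or more in the 300 bp on the summit, a limit chosen after the values were seen. In HP alone the number was 383 of 7200 (5.32%, 4.82 to 5.86), and the medians were 53% and 50.3%. The difference was present at starts, with 38.6% of 981 members against 12.1% of 1369 regions of HP alone, and over 1 kb away from one, with 12.8% of 3199 against 3.74% of 5831. It was present among high summits too: at a scaled pileup of 1.5 or more in HP_2 the shares were 36.0% of 556 and 10.2% of 1573. The GC content also moved with the replicate set outside of the members. GC-rich summits made up 8.88% of the regions called in LP_2 only and 3.47% of those in HP_2 only, but 0.347% of those in LP_1 only and 1.10% of those in HP_1 only. Of the regions shared by LP_1 and HP_1 alone, 1.69% were GC-rich. GC content, depth and replicate set thus moved together, and the part of depth in these shares was not tested.

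**Figure D3:**
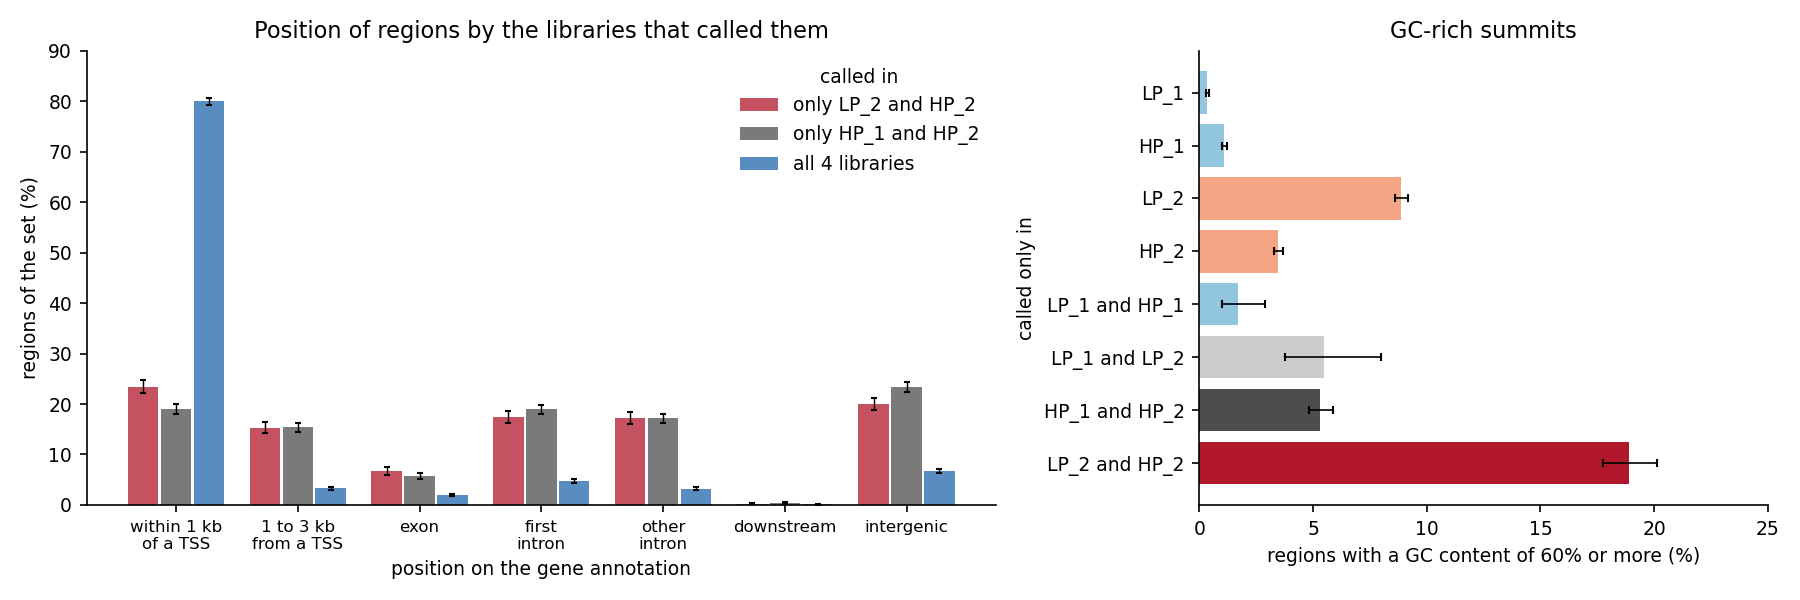
Left, share of regions in each class of position (%), for regions called only in LP_2 and HP_2, only in HP_1 and HP_2, and in all 4 libraries, and right, share of regions with a GC content of 60% or more in the 300 bp on the summit (%), by the libraries that alone called them, with 95% Wilson intervals as error bars. By position members are closer to regions of HP alone than to those of all 4 libraries, but 18.9% of members are GC-rich against 5.32% of regions of HP alone.

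Matches to short consensus sequences were counted on both strands of these windows. No consensus contains another, although matches can share bases. Members held GGGCGGG of the SP/KLF factors in 9.38% of windows and CCGGAAG of the ETS factors in 3.68%. These shares were 5.96% and 2.53% in HP alone, 31.4% and 9.21% in regions of all 4 libraries, and 5.26% and 2.22% in all regions. Both consensus sequences are rich in G and C, and the order turned in windows over 1 kb from a TSS with a GC content of 45% to 55%. There the shares were 3.47% of 1789 members against 4.0% of 3673 regions of HP alone for SP/KLF, and 2.24% against 2.45% for ETS, with overlapping intervals. TCACGTG or TCATGTG of MITF occurred in 6.94% of members (6.21 to 7.75), 7.22% of regions of HP alone and 6.96% of all regions. TGANTCA of AP-1 occurred in 8.68% of members against 10.3% in HP alone and 8.75% in all regions, AACAATG of the SOX factors in 2.73% against 3.97% and 4.34%, CTTTGAT of Lef1 in 3.73% against 4.03% and 4.62% (in windows of like GC content 4.70% against 4.11% in HP alone), and ACATTCC of TEAD in 3.59% against 4.64% and 3.81%. In windows over 1 kb from a TSS with a GC content of 45% to 55%, AP-1 was in 10.7% of members and 11.2% of HP alone. There SOX was in 3.19% and 4.0%, TEAD in 4.47% and 5.34%, and MITF in 8.44% and 8.19%. The intervals of members and HP alone overlapped in each of these. TGACGTCA (CRE), CGCATGCG (NRF1), TTTCCCGC (E2F) and AGGGGGCGC (CTCF) were each in 0.239% to 0.502% of members.

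Peaks of set 1 were often near. The median distance from a member to the nearest peak of LP_1 or HP_1 was 2280 bp (quartiles 615 and 7967), and 1437 members (34.3%) had such a peak within 1 kb. For 916 members (21.9%) the nearest region with a peak of set 1 was one of all 4 libraries, for 491 (11.7%) it was one of HP alone, for 1194 (28.5%) one of HP_1 only and for 893 (21.3%) one of LP_1 only. The 1437 members with a near peak had 24.8% at starts and a median scaled pileup of 0.782 in LP_2 and 0.912 in HP_2. The 2747 others had 22.8%, 0.782 and 0.842. Within 10 kb of a region of HP alone lay 1011 members (24.2%), at a median distance of 43368 bp over all members, against 16.5% of all regions, 21.8% of those of LP_2 and HP_1 only and 25.5% of those of LP_1 and HP_2 only. Within 10 kb of a region of all 4 libraries lay 1525 members (36.4%), against 38.6% of regions of HP alone and 25.3% of all regions. Both shares of all regions (16.5% and 25.3%) include the regions searched for, each counted as near itself. They therefore overstate the share among the other regions.

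In set 2 the median scaled pileups of members in LP and HP were close. HP_2 had the higher scaled pileup in 2508 (59.9%), with a median log2 ratio of HP_2 to LP_2 of 0.11 (quartiles −0.26 and 0.58), but once each library was divided by its median over the regions of all 4 libraries, which lowers every ratio by 1.34, the median turned to −1.23 and 162 members (3.87%) were higher in HP_2. Over the regions of all 4 libraries the median ratio was 1.30 before that division and 98.6% were higher in HP_2. A member had to be called in both populations, which limits how far its ratio can go. The ratio was 2-fold or more in favour of HP_2 in 425 members (10.2%) and of LP_2 in 78 (1.86%). With 1 library of each population in set 2 these ratios have no replicate check. They were also not adjusted for the fragment length, which was 217 bp in LP_2 and 192 bp in HP_2.

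The 2 largest ratios were at starts. Fan1, a nuclease of DNA crosslink repair, had 11 fragments in LP_2 and 74 in HP_2 at its TSS (scaled pileup 0.716 and 5.19, log2 ratio 2.86). Wdr61, a subunit of the PAF1 and SKI complexes, had 14 and 67 fragments (0.912 and 4.70, log2 ratio 2.37). An intergenic member 100066 bp from the start of Ism1, which encodes a secreted protein, had 6 and 28 fragments. HP_2 was far higher in these 3, although HP_1 had no peak in them and the nearest peaks of set 1 were 7304, 8744 and 13160 bp away. At the other end stood a member 2362 bp from the start of Adam12, a membrane metalloprotease, and also over A130023I24Rik, with 20 fragments in LP_2 and 6 in HP_2 (log2 ratio −1.63), and first introns of Rbms1, an RNA-binding protein, and Rufy3, each with 18 and 6 fragments.

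At the starts of protein-coding genes 6 members had the highest ranks by q-value. At Zfand1, which takes part in the clearance of stress granules, the region chr3:10350743-10351509 covered the TSS with 39 fragments in LP_2 and 86 in HP_2 (scaled pileup 2.54 and 6.03), a fold enrichment of 11.8 and 27.1, and the nearest peak of set 1 was 8905 bp away. Tmem177, a mitochondrial membrane protein, had 2.61 in LP_2 and 4.98 in HP_2 (chr1:119912790-119914018). There a region of HP alone lay 233 bp away. At Rnft2 the values were 2.34 and 3.65, with a region of all 4 libraries 68 bp away. Pecr, an enzyme of peroxisomal fatty acid metabolism, had 1.82 and 4.91, 5730409E04Rik 2.28 and 3.44, and the centriole protein gene Ccdc61 2.21 and 2.67. In all 6 HP_2 was higher, and 4 of them had no peak of set 1 within 3 kb. The rank that chose them includes the q-value in HP_2. After division by the median over the regions of all 4 libraries, which lowers every log2 ratio by 1.34, only Pecr (1.43 before) stayed higher in HP_2.

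Away from starts, the ranks were led by Gm47283 in the distal part of chromosome Y, with 2.54 in LP_2 and 3.51 in HP_2. The other members were 2700062C07Rik (1.95 and 3.09, 3038 bp from the start), a site 26947 bp from Asns, the asparagine synthetase gene (2.02 and 3.79), a site 68374 bp from Zfp217, a zinc finger factor (1.63 and 4.91), an exon of Zmynd8, a reader of acetylated histones (2.08 and 2.53), and the first intron of Cat, the catalase gene (1.37 and 3.44). The first intron of Cat and the site near 2700062C07Rik were within 4 kb of a region of all 4 libraries.

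Height in both libraries was rare. In 90 members both scaled pileups were 1.5 or more, a limit chosen after the values were seen. Of these, 46 were within 1 kb of a TSS, 59 were higher in HP_2, and 48 were over 5 kb from any peak of set 1. The fold enrichment was 5 or more in both libraries in 51 and below 5 in both in 23. The second kind had high pileup on a high local background. It included a repeat on chromosome 17 with 819 and 379 fragments at a fold enrichment of 2.04 and 1.19. The nearest protein-coding TSS to that repeat, of Tcp10c, was 197633 bp away. Also of this kind were 4 members on an unplaced contig, and a site near Gm21860 on chromosome Y with 75 and 80 fragments at 2.88 and 3.88. Such members passed the q-value with a small fold enrichment.

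Genes with a member numbered 2744 of 21992 protein-coding genes (12.5%), counted in the gene body and 3 kb on either side, and those with a region of HP alone 3508 (15.95%). Both kinds were found in 1077 genes, 39.2% of the former and 30.7% of the latter. A region of all 4 libraries was also present in 77.0% of the genes with a member. The gene lists named here hold genes of different length, and a longer gene has more room for a region, which was not adjusted for. Over the whole genome the members were 0.897 to 2.48 per Mb on autosomes and 0.251 per Mb on X.

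Of 35 pigmentation and melanosome genes, 12 (34.3%) had a member and 20 (57.1%) a region of HP alone. Of 23 melanocyte transcription factors and signalling genes these were 8 (34.8%) and 11 (47.8%). Proliferation genes were the other way round, with 7 (25%) and 4 (14.3%) of 28, and so were ribosomal protein genes with 21 (27.6%) and 12 (15.8%) of 76. Dedifferentiation and invasion genes had 4 and 8 of 18, Hox genes 3 and 2 of 39, and chemosensory receptor genes, which are silent in most tissues, 4 (0.266%) and 6 (0.399%) of 1503. All but the last 2 lists stood above the 12.5% of all genes for members, although the interval of the dedifferentiation genes includes it. The intervals of members and of HP alone overlapped in each list, so the reverse order at proliferation and ribosomal genes rests on few genes.

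**Figure D4:**
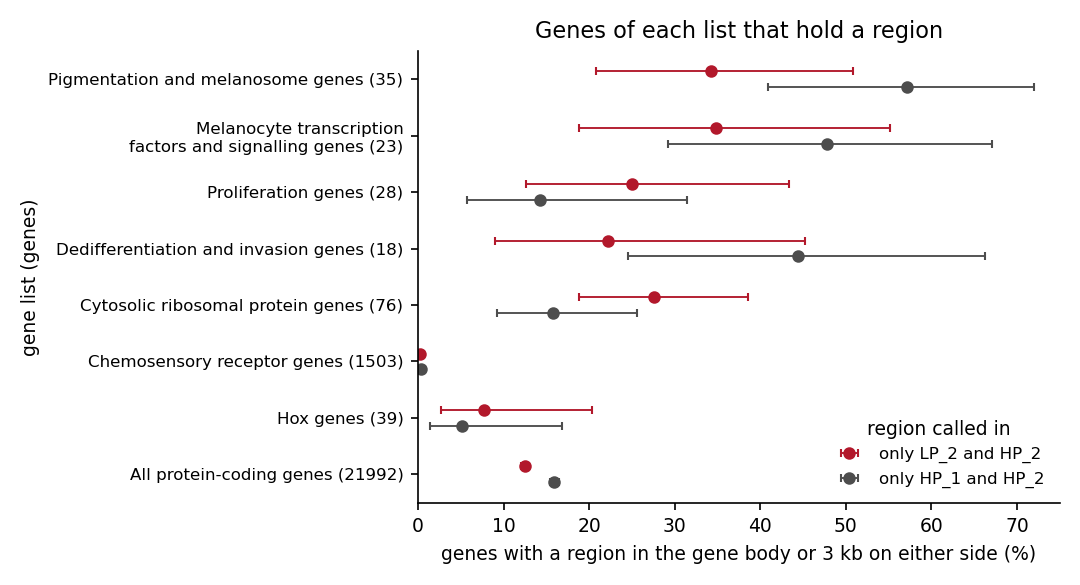
Share of the genes of each list (%) that held, in the gene body or 3 kb on either side, a region called only in LP_2 and HP_2 or only in HP_1 and HP_2, with the number of genes in parentheses and 95% Wilson intervals as bars. For pigmentation genes the shares are 34.3% and 57.1%, for proliferation genes 25% and 14.3%.

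At the pigmentation and melanocyte genes lay 39 members at 20 genes. Their scaled pileup was 0.391 to 2.21 in LP_2 and 0.491 to 2.39 in HP_2, HP_2 was higher in 27 with a median log2 ratio of 0.31, and after division by the median over the regions of all 4 libraries 4 stayed higher. For all members the median was 0.11. The median distance to a peak of set 1 was 694 bp, and to a region of HP alone 6778 bp, against 2280 bp and 43368 bp for all members. Of the 20 genes, 16 also held a region of HP alone, and the 4 without were Myo5a, Hps3, Kit and Tfeb.

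Among structural genes of the melanosome, Oca2, a transporter that sets melanosomal pH, had an intronic member with 10 fragments in LP_2 and 34 in HP_2 (scaled pileup 0.651 and 2.39, chr7:56399157-56399587), 140 bp from a region of HP alone. In Oca2 2 others, within 1 kb of a TSS, had 14 and 11, and 6 and 11 fragments, and the annotation also has Gm44506 over the former. Gpnmb, a melanosomal glycoprotein, held 3 members, and the one whose sequence is given had 16 and 22 fragments (1.04 and 1.54, chr6:49047077-49048501). The others had 0.782 in LP_2 and 1.40 in HP_2, and 0.586 and 1.89, so HP_2 was higher in all 3. Rab38, a GTPase that sorts melanosomal enzymes, had 0.847 and 1.05. The member at Hps3, a subunit of a complex for melanosome cargo, had 0.716 and 1.40. It lay in a first intron where the annotation has both Hps3 and Cp, and the nearest protein-coding TSS was that of Cp. Tyrp1, an enzyme of melanin synthesis, had 3 members with 0.716 and 0.912, 0.847 and 0.491, and 0.521 and 0.842, which did not share a direction. Myo5a, the motor that holds melanosomes on actin, had 3 members in its first intron. One had 0.977 in LP_2 and 1.40 in HP_2. Another, nearer to the start, had 2.21 and 1.40, with a fold enrichment of 4.10 and 3.05, so neighbouring members of 1 intron went in opposite directions. Dct, which converts dopachrome, had 1.17 and 0.491 in a member within 1 kb of a TSS, but 25047 bp from the nearest protein-coding one. It held 2 further members with 0.651 and 0.842 and with 0.782 and 0.631.

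Regulatory genes of melanocytes gave the same mixed picture. Mitf held 3 members. The one whose sequence is given, in an intron 555 bp from a peak of HP_1, had 13 fragments in each library (0.847 and 0.912, chr6:97999439-97999758). The others had 0.586 and 1.54, and 0.912 and 0.631. A member 10002 bp from the start of Sox10, the neural crest factor, had 0.782 in LP_2 and 1.12 in HP_2. Met, the receptor of hepatocyte growth factor, had 3 members, with 1.04 and 1.33 in the one of the highest rank, 1.04 and 0.842 within 1 kb of a TSS, and 0.847 and 0.772 in its first intron. Ppargc1a, a coactivator that drives Mitf, had 0.521 and 1.33 in its first intron and 0.651 and 0.842 nearer the start. The member behind Kit, the receptor of stem cell factor, had 0.912 in each library.

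Each of 7 proliferation genes had 1 member. Their median log2 ratio was 0.0075, with 4 higher in HP_2 before and 0 after division by the median over the regions of all 4 libraries. Mcm6 and Mcm2, subunits of the replicative helicase, had 0.912 in LP_2 and 1.19 in HP_2, and 0.716 and 1.68. The kinases of mitosis Aurkb and Cdk1 had 0.977 and 0.982, and 0.847 and 0.631. Ccnd1, a cyclin of G1, had 1.04 and 0.842, Myc 1.11 and 0.842, and Cdk6 0.716 and 0.982. All 28 proliferation genes also held a region of all 4 libraries. Except for that at Cdk6, 20491 bp away, the members lay 184 to 1662 bp from one.

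**Figure D5:**
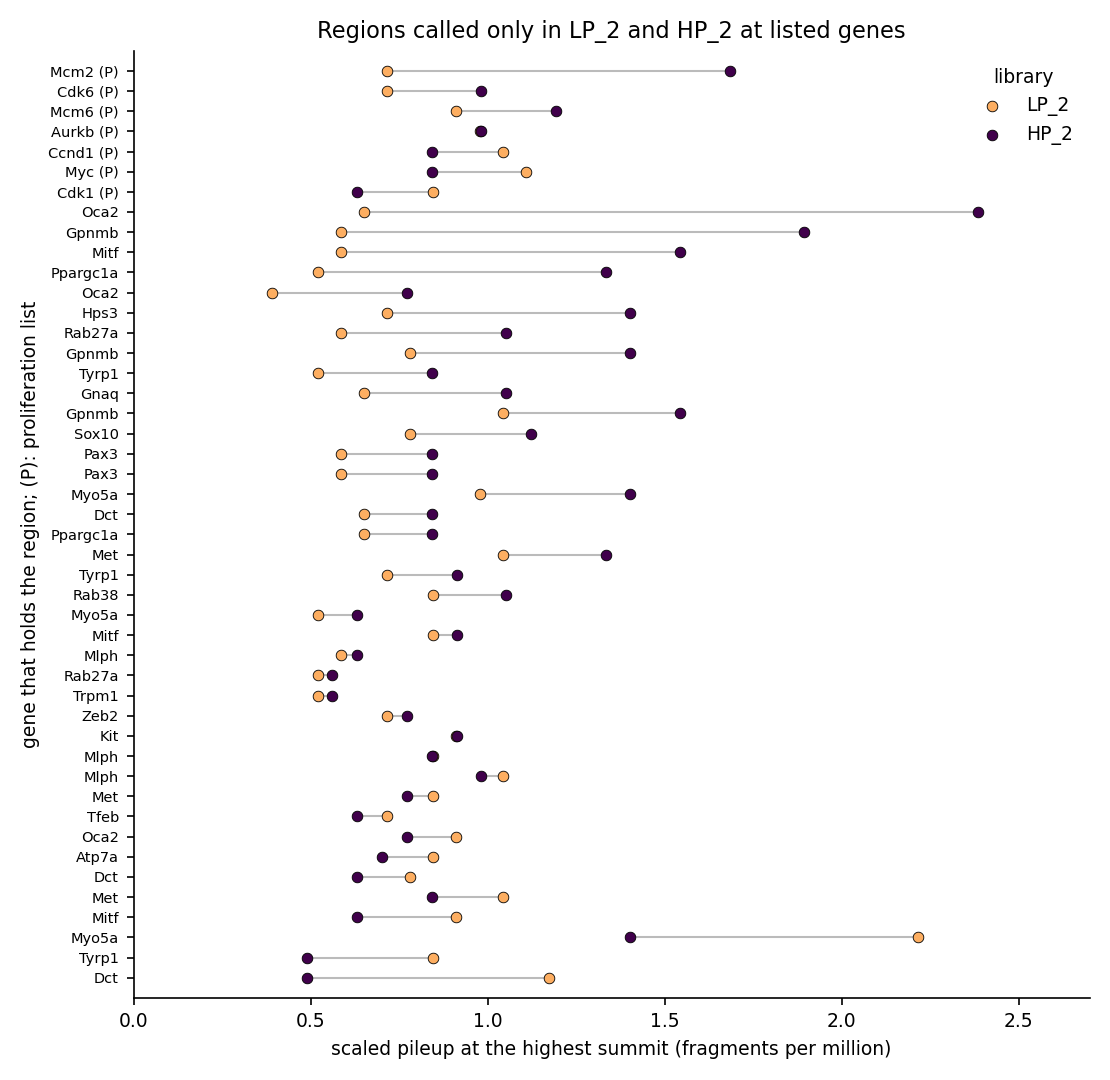
Scaled pileup at the highest summit in LP_2 and HP_2 for the 39 members at pigmentation and melanocyte genes and the 7 at proliferation genes, marked (P), ordered within each list by the log2 ratio, with 1 region in each row. HP_2 is higher in 27 of 39 and in 4 of 7, and 1 member at Oca2 reaches 2.39 in HP_2 from 0.651 in LP_2.

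Some genes held many members. Leaving out 2 gene models that span several Mb of other genes, Zmynd8 had the most, 10, with 2 regions of HP alone. Their scaled pileup was 0.586 to 2.08 in LP_2 and 0.631 to 2.53 in HP_2, and HP_2 was higher in 7. Nav2 had 9 members and 10 regions of HP alone, Dst 8 and 14, and Sh3pxd2a 8 and 7. Rxra, the partner of many nuclear receptors, had 7 members and 1 region of HP alone, with 0.586 to 1.17 in LP_2 and 0.631 to 1.82 in HP_2. Mgat5, a glycosyltransferase of branched N-glycans, had 6 members and 0 regions of HP alone, and HP_2 was higher in 2 of the 6. Both counts were thus high at Nav2, Dst and Sh3pxd2a, and only that of members at Zmynd8, Rxra and Mgat5, among genes picked by their counts of members. The counts were not adjusted for gene length. It was 701375 bp for Nav2, 400437 bp for Dst and 204228 bp for Sh3pxd2a, against 114865 bp for Zmynd8, 86518 bp for Rxra and 283322 bp for Mgat5.

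Members also crowded in some stretches of the genome. Of 2737 windows of 1 Mb, 1262 held 0 members and 28 held 10 or more. The highest count was 25 among 227 regions, on chromosome 8 from 123 to 124 Mb, beside 15 regions of HP alone and 34 of all 4 libraries. A stretch on chromosome 4 held 22 members among 253 regions (8.70%), against 2.29% over the genome. Its members span chr4:140568329-141692160, and the regions were counted in a slightly wider window. The stretch was picked for its members, so a share above that of the genome follows from the choice. The members there were high, with a median scaled pileup of 1.5 in LP_2 and 1.58 in HP_2, but their fold enrichment was low, with medians of 3.76 and 3.67. The local background of the peak caller, recomputed from pileup and fold enrichment, was 0.331 on the scale of the pileup in LP_2 and 0.337 in HP_2 in that stretch, against 0.111 and 0.103 over all members. Among them were a start 8577 bp from that of Necap2 (31 fragments in LP_2 and 29 in HP_2), the start of Epha2, a receptor kinase (41 and 22), and an intron of Fbxo42 (41 and 38). The part of the local background in these calls was not tested.

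On chromosome Y lay 10 members, all between 90738905 and 90807676, with scaled pileups of 0.456 to 4.88 in LP_2 and 0.702 to 5.61 in HP_2. They were 24.4% of the 41 regions on that chromosome, and HP alone had 1 region there. This end of chromosome Y holds the pseudoautosomal region, whose sequence is shared with X, and reads from either chromosome cannot be told apart there.

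Members have no value in set 1, so the difference between HP and LP was tested in the regions near them, by limma over the 12084 regions of all 4 libraries. Of these, 1708 were within 10 kb of a member, and 71 of the 1708 (4.16%) were higher in HP at an adjusted p of at most 0.05, with 0 lower. Over all regions tested 485 (4.01%) were higher and 0 lower, so the regions near members were called at about the background rate. Without adjustment, 691 (40.5%) near members had a p under 0.05 and were higher, against 36.2% of all, and 0 were lower. The median log2 difference was 0.97 near members and 0.92 over all regions. The standard error of a region was 0.54, a value pooled over regions. With the replicate number as a block 13 of the 1708 remained past the threshold, and 88 of all. Without LP_1, LP_2 or HP_2 there were 0, without HP_1 there were 1051, and after subtraction of each library's median there were 0, with an unadjusted p under 0.05 in 25 that were higher and 45 that were lower.

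Of the 5 neighbours that share the smallest adjusted p, 3 are given, chosen after their values were seen. At Rpl14, a ribosomal protein gene 2600 bp from a member, the scaled pileup was 0.872 in LP_1, 1.37 in LP_2, 3.31 in HP_1 and 7.86 in HP_2 (log2 difference 2.22, limma adjusted p = 0.033, and 0.047 with the block). At Hfe2, 605 bp from a member, the values were 0.523, 0.521, 1.48 and 3.79, with the same adjusted p-values. At Slco3a1, a transporter gene, they were 0.523, 0.912, 2.18 and 4.91. In these 3 both HP libraries were above both LP libraries, and HP_2 was above HP_1. The HP to LP ratio near members was larger in set 2, with a median log2 of 1.34, than in set 1, with 0.59, and so it was over all regions, with 1.30 and 0.57.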

How the data were processed

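H3K27ac ChIP-seq of LP and HP cells was analysed, with 2 replicates each, mapped from their titles. The members and gene lists were chosen with earlier results of these data known. Per the labels the authors used bcl2fastq 2.20, Trimmomatic 0.33 and Bowtie2 2.5.1, with mm10 as genome. The authors called peaks per library with MACS 3.0.0b1 at a q-value of 0.05 with the IgG library of that replicate set as control, keeping duplicates. The deposited pileup is a signal, the number of fragments over the summit, without scaling. The fold enrichment, a ratio of pileup plus 1 to local background plus 1, was computed by the authors, as were the deposited −log10 p-values and −log10 q-values, which were used to rank, filter or describe peaks. The deposited MACS score of the peak lists was made by the authors' software and was not used.

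Peaks that shared 1 bp were merged. Of the summits of a library in a region the highest was taken, and its pileup was scaled to 1000000 fragments (totals of 11467942 to 15353176). Positions came from GENCODE M21 for GRCm38, and sequence from GRCm38.p6 with 4180 of 4184 members matched. Printed windows held at most 30 bases of UTR, and the sequences of 2 other windows are not reported here. Named members were the 6 of the highest mean rank by q-value at a protein-coding TSS and the 6 away from any TSS, up to 10 at pigmentation or melanocyte genes and 4 at proliferation genes, the 3 widest, and the 3 highest and 3 lowest log2 ratios with 10 or more fragments in 1 library. Other names and the limits on GC content and height were chosen after their values were seen. limma 3.58.1 in R 4.3.3 compared log2 scaled pileups without a pseudocount, with Benjamini-Hochberg adjustment. Samples of a replicate set share DNA amounts per the labels and an IgG library, so the replicate numbers pair them, although their deviations correlated at 0.0153 over regions. The block was an alternative. p-values rest on the spread between these samples pooled over regions, and not on the spread of each region. limma gave every called neighbour the same standard error, 0.54. Python 3.11.15, pandas 2.3.3, scipy 1.17.1, pysam 0.24.0 and matplotlib 3.10.9 were used. Merging, distances and limma were tested on simulated data. Reads were not used here.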

Additional observations from a re-analysis of the deposited data

How the results depend on the processing

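The count of 4184 members was 3802 and 2888 at q-values of at most 0.01 and 0.001, 3588 with the stricter q-value in set 2 only, 3517 with lists of equal size, and 4320 and 3928 with merging up to 100 and 1000 bp apart. It was 2273 where the peaks of LP_2 and HP_2 had to overlap by 50% of both, and 2747 over 1 kb from any peak of set 1, an alternative chosen after seeing the data. Leaving out LP_1, HP_1 or both gave 4426 to 22024, since the rule then asks for less, and of the single libraries HP_1 moved it more (9693).

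The share at a TSS was 38.7% within 3 kb, 13.5% with protein-coding transcripts, 24.8% at a q-value of at most 0.01, 21.8% with merging up to 1000 bp and 30.02% in the 1929 members with over 10 fragments in both libraries, chosen after seeing the data. It stayed above that of HP alone under the stricter q-values, the equal lists and the wider merging. The median log2 ratio was 0.19 at a q-value of at most 0.01, 0.23 with over 10 fragments, and −1.23 after scaling to the regions of all 4. Of the neighbours, 13 were higher in limma with the replicate block, 0 centred, 0 with mean summits (530 at an unadjusted p under 0.05) and 0 to 1051 without 1 library each, where the lone sample is taken to vary like the other group. The fits with 0 had 154 without LP_1, 263 without LP_2 and 303 without HP_2 at an unadjusted p under 0.05. Within 1 kb it was 18 of 473, and within 50 kb 221 of 4639. The MITF share was 4.40% in windows of 200 bp. At a q-value of at most 0.01 the width was 520 bp and the distance to set 1 2532 bp. Genes with a member were 10.6% by gene body and 15.96% with 10 kb on either side. With 12 fragments at the median summit, the lack of a peak in set 1 says only that a summit stayed under the threshold.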

Other observations

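Of the 4 members outside chromosomes 1 to 19, X and Y, all lay on 1 unplaced contig, where scaled pileups rest on 155 to 513 fragments in LP_2 and 186 to 242 in HP_2 at a fold enrichment of 1.54 to 3.08. For 2 members on chromosome 1 the nearest protein-coding TSS was that of Fcgr3, and the second lay 12862 bp from it. Their pileup was 70 and 46 fragments in LP_2 and 104 and 41 in HP_2, with peaks of set 1 at 5857 and 1667 bp. The fold enrichment was 3.88 in LP_2 and 5.03 in HP_2 at the first, and 2.03 and 2.05 at the second. These values were picked for their height after they were seen. At the starts of Bst2, which encodes tetherin, Zfp14, a zinc finger gene, and Myh14, a nonmuscle myosin gene, the fold enrichment was 8.02 and 8.32, 9.58 and 9.65, and 5.56 and 14.7 in LP_2 and HP_2, and the nearest peaks of set 1 were 4726, 20717 and 5261 bp away.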
